A study of Mus musculus with 6 samples.

Results

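The coagulation and fibrinolysis genes followed here in the myeloid cells of mouse colon were F3, F7, F10, F13a1, Thbs1, Plaur, Procr and Thbd. They are 8 of the 32285 genes in the count tables, found by their symbols, and all 8 had counts in each of the 6 libraries. They were chosen by their UMI counts in these same myeloid cells, with their differences between libraries known, so their levels are given as a description. Clotting starts when tissue factor (F3), a membrane protein, meets factor VII (F7); the pair activates factor X (F10), which with its cofactor makes thrombin, and thrombin turns fibrinogen into fibrin. Factor XIII, whose catalytic subunit is encoded by F13a1, cross-links the fibrin. Thrombomodulin (Thbd) and the endothelial protein C receptor (Procr) turn thrombin against further clotting by way of protein C, the urokinase receptor (Plaur) focuses plasmin formation on the cell surface, and thrombospondin 1 (Thbs1) is a matrix and platelet glycoprotein that binds CD36 and CD47. The liver makes most of the circulating factor VII and factor X, while tissue macrophages are known to make factor X, factor VII and factor XIII themselves.

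Transplanted mice were given marrow only (BM) or marrow plus spleen cells; the second graft brings T cells of the donor that turn on the host, which is graft-versus-host disease (GVHD). The 6 single-cell libraries were of sorted donor CD11b+ CD64+ colon macrophages from BM mice, from GVHD mice, from wild-type (WT) transplant recipients and from IL-34-/- recipients (IL34KO), and of sorted donor T cells from WT and IL34KO recipients. Through CSF1R, a receptor that keeps macrophages alive, IL-34 acts beside CSF1. Each group was 1 library. Kits for 5′ and 3′ RNA ends were both used, with no word on which library had which. The kit may therefore differ within a comparison. Strain, age, the number of animals behind a library, the graft given to the WT and IL34KO recipients and any exon of Il34 that was deleted are not given in the sources used here. With no replicate, no test was made, and every interval below is a 95% interval of counting error alone, not of the spread between mice.

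After the filter (at least 500 detected genes, at most 10% mitochondrial counts) 39613 of 60605 barcodes remained, and 27490 of these were gated as myeloid from 16 marker genes, with no other lineage panel positive. They held 324872470 unique molecular identifiers (UMIs), each standing for 1 captured RNA molecule. In the order BM, GVHD, WT and IL34KO macrophages, WT and IL34KO T cells, the gate took 2082, 2381, 4259, 4314, 9061 and 5393 cells, with median depths of 13032.5, 17293, 13441, 11818.5, 7020 and 7535 UMIs. The gated cells carried the genes of the macrophage sort in all 6. Fcgr1, which encodes CD64, was at 87.9 to 112 counts per 1000000 UMIs (CPM). It is 1 of the 16 marker genes, so its presence was partly set by the gate. Itgam, which encodes CD11b and is not a gate gene, was at 189 to 314 CPM. The label of the T-cell libraries went against their content, since 64.4% and 62.9% of their filtered cells were myeloid-gated, against 2700 and 1583 T-gated cells. BM and GVHD shared 2502 barcodes, 2486 of them with more UMIs in GVHD, whereas the other 14 pairs of libraries shared 5 to 75; these barcodes were dropped from BM. Over all barcodes Il34 was at 1.76 CPM in the WT and 2.30 CPM in the IL34KO macrophage library. These counts cannot check the genotype, since the recipients lacked IL-34 while the sorted cells were of the donor. The barcodes also held other cells, with 327 and 762 epithelial-gated ones in the 2 libraries. As the genotype was not checked, the text says "the library labelled IL34KO". Gated cells also formed clusters led by genes of other lineages, with 1.59% and 3.07% of the BM and GVHD cells and 12.97% to 21.2% of the others; values without them are given where they move a result.

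F7, F10 and Procr were low in BM and high in the other 5 libraries, and F13a1 did the reverse. The promoters of these 4 genes are shown because the genes moved together or against each other; promoters were matched by symbol for 6 of the 8 members, all but Thbs1 and Thbd. They run from 250 bases before to 50 after the start site in RefSeq's GRCm38.p6, the build the files use, and capitals mark motif matches. The F7 promoter is at chr8:13025784-13026083 (+), the F10 promoter at chr8:13037058-13037357 (+), the Procr promoter at chr2:155750967-155751266 (+) and the F13a1 promoter, that of the start at the annotated gene end, at chr13:37050195-37050494 (-).
F7: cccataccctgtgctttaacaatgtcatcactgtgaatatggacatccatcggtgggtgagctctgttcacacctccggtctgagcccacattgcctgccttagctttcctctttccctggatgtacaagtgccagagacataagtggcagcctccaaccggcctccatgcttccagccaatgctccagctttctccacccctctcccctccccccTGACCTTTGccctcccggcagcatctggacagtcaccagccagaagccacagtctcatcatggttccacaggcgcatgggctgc
F10: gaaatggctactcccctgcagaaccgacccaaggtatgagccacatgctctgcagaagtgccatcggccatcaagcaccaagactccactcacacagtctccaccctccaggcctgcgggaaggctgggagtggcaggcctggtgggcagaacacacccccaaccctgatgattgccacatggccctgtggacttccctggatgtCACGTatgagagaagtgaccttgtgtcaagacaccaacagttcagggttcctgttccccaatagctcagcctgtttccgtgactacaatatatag
Procr: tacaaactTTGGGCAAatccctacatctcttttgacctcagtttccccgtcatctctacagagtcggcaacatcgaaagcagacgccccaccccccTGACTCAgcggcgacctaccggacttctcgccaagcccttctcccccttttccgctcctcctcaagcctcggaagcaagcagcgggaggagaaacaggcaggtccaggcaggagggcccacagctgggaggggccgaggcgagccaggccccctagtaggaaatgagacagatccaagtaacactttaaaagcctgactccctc
F13a1: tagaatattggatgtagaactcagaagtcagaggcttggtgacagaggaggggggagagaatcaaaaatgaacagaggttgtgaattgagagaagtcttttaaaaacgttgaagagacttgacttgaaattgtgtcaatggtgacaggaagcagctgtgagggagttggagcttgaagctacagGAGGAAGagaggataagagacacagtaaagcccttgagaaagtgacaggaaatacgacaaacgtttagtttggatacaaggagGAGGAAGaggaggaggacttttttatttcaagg

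On both strands, 10 motifs were searched in these windows and of all 32851 mouse promoters in the table: AP-1 (TGANTCA), an HNF4 element (TGACCTTTG), a hypoxia element (ACGTG), PU.1 (GAGGAAG), STAT (TTCNNNGAA), C/EBP (TTGCNNAA), NF-kB (GGG, any 2 bases, TTTCC), IRF (GAAA, any 2 bases, GAAA), Sp1 (GGGCGG) and the E-box (CACGTG), which contains the hypoxia letters. F7 held the HNF4 letters 34 bases before its start, a motif of 0.478% of all promoters. F10 held none but the hypoxia letters at base -45, as 19.6% of promoters do. Procr held AP-1 letters at -154 and C/EBP letters at -242, found in 7.81% and 10.8% of promoters. Its RefSeq start lies 100 bases from the GENCODE start of the gene. F13a1 held the PU.1 letters at -66 and at 18, found in 13.6% of promoters. Another F13a1 start, 1031 bases from the annotated gene end and not shown, held the PU.1 letters at 15. No motif of the 10 was shared by F7, F10 and Procr, the 3 genes that were high in the same libraries. These matches are descriptions of letters, not of binding.

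**Figure D1:**
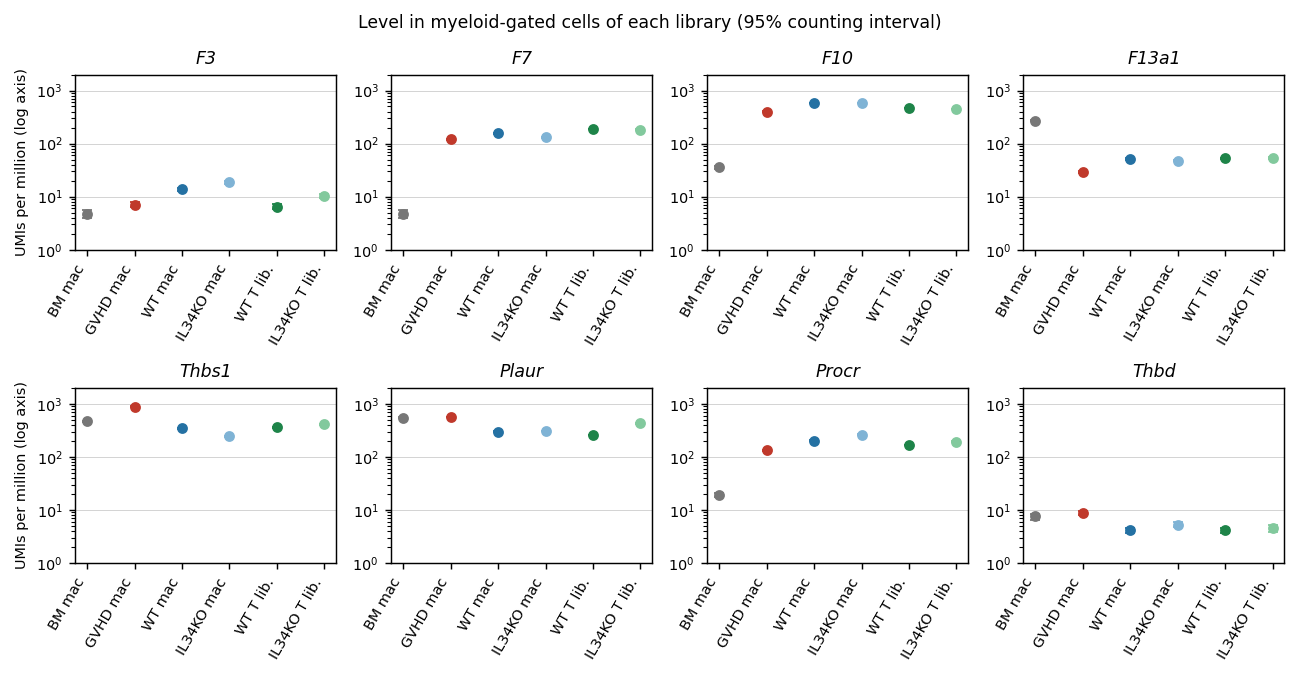
Level of each of the 8 genes in the myeloid-gated cells of the 6 libraries, in CPM on a log axis; bars are 95% counting intervals and are often smaller than the point ("mac", macrophage library; "T lib.", T-cell library). F7, F10 and Procr are lowest and F13a1 is highest in BM, while Plaur and Thbs1 are highest in GVHD.

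Factor VII was nearly missing from the BM macrophages and present in all others. In BM, GVHD, WT and the library labelled IL34KO, F7 was at 4.70, 121, 155 and 132 CPM, and in the myeloid cells of the WT and IL34KO T-cell libraries at 188 and 180.4 CPM. BM stood alone at the low end, below GVHD by 25.8-fold (21.9 to 30.6), and no 2 neighbours in the order of libraries had overlapping intervals. The BM level rested on 146 UMIs in 70 of 2082 cells. To compare cells at equal depth, the UMIs of each cell were sampled down to 2000, so that 107 BM and 83 GVHD cells with fewer dropped out. A UMI of F7 was then seen in 0.456% of BM cells (0.209% to 0.863%) and in 18.8% of GVHD cells (17.2% to 20.5%); without thinning the shares were 3.36% and 61.9%. In T-gated cells, which should lack the gene, 0 of 84 thinned BM cells and 0 of 107 thinned GVHD cells had one, and the share in the other 4 libraries was 0.479% to 0.990%. The BM share cannot be set against a background of its own library, since 0 of 84 allows up to 4.30%. The T-gated shares above 0 came from libraries with more F7. Without thinning, a BM cell held up to 10 UMIs of F7, and whether some BM cells express it was not tested. The shares in the other 5 libraries were far above those of T-gated cells.

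Factor X was found in most myeloid cells outside BM: 10.8% of BM cells and 72.2% to 89.1% of the cells of the other libraries had a UMI of F10. Its level was 35.7 CPM in BM and 401 CPM in GVHD, an 11.2-fold difference (10.6 to 11.9). WT and the library labelled IL34KO had 580.3 and 576 CPM with overlapping intervals, and the myeloid cells of the T-cell libraries had 464 and 446 CPM. At 2000 UMIs a cell, F10 was seen in 4.30% of BM, 48.0% of GVHD and 60.2% of both WT and IL34KO macrophages, against 0% to 2.35% of T-gated cells.

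F7 (ENSMUSG00000031443, chromosome 8, 13026034 to 13035809, plus strand) and F10 (ENSMUSG00000031444, 13037308 to 13056676, plus strand) are neighbours, 1498 bases apart. Within 200 kb of the pair lie 15 other annotated genes, 6 of them with at least 5 CPM in BM or GVHD. Of these 6, 1 passed 1.5-fold: Gm17023, annotated as an antisense RNA on the far side of Proz, at 0.580 CPM in BM and 8.93 CPM in GVHD, a ratio of 15.4 (9.64 to 26.2). Proz, which encodes the anticoagulant protein Z and lies next to F10, missed the level of 5 CPM and was at 0.580 and 4.97 CPM, a ratio of 8.58. Atp11a, Pcid2, Cul4a, Lamp1 and Dcun1d2 stood between 1.08- and 1.49-fold. The 4 genes with ratios over 8 thus lay side by side, and the neighbours with at least 5 CPM on both flanks were within 1.5-fold. Mcf2l, the nearest gene before F7, was under that level, at 1.45 CPM in BM and 1.70 CPM in GVHD. Whether the counts of Proz and Gm17023 are separate transcripts or reads that run on from F10 was not tested.

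**Figure D2:**
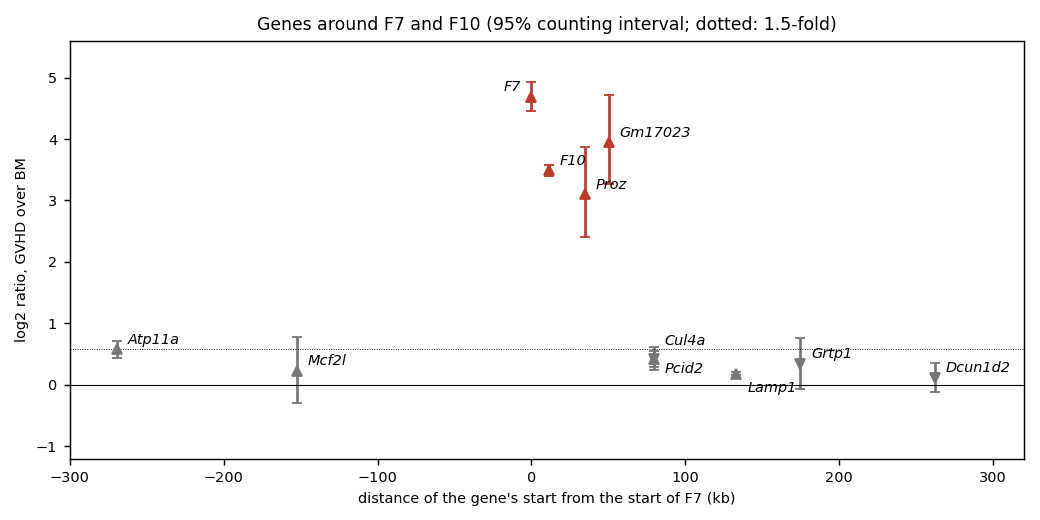
Ratio of GVHD over BM (log2, with 95% counting intervals) for genes around F7 and F10 that reach 1.5 CPM in either library, against the distance of each gene's start from the start of F7 in kb. Triangles point up for the plus strand and down for the minus strand; F7, F10, Proz and Gm17023 (red) lie above the dotted 1.5-fold line, the other genes between 0 and 0.58.

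Procr followed F7 and F10. The level of this receptor for protein C was 18.8 CPM in BM and 133 CPM in GVHD, 203 CPM in WT and 263 CPM in the library labelled IL34KO, and 167 and 192 CPM in the myeloid cells of the T-cell libraries. GVHD exceeded BM by 7.06-fold (6.49 to 7.69), and no intervals of neighbouring libraries overlapped. At equal depth 3.14% of BM and 16.8% of GVHD cells had a UMI of it, against 0 of 84 and 1.87% of T-gated cells. Thbd, the thrombomodulin gene of the same pathway, was at 7.54 and 8.81 CPM in BM and GVHD and at 4.11 to 5.27 CPM elsewhere. The BM and GVHD intervals of Thbd overlapped (ratio 1.17, 0.997 to 1.37). Endothelial-gated and stromal-gated cells of these libraries had 91.3 to 227 CPM of Thbd, so its level in the myeloid gate was a small part of theirs.

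Tissue factor was scarce in the myeloid cells. BM had 4.70 CPM of F3, GVHD 7.06, WT 13.7 and the library labelled IL34KO 18.5, with 6.504 and 10.2 CPM in the myeloid cells of the T-cell libraries. GVHD and WT T-cell values had overlapping intervals; BM was lowest. Neutrophil-gated cells of the WT and IL34KO macrophage libraries had 265 and 269 CPM of F3, and epithelial-gated cells 47.0 to 156 CPM. Neutrophil markers (5 of 5 detected in each library, none at 0) summed to 67.8 to 90.9 CPM in the myeloid gate of 4 libraries but to 1142 and 1759 CPM in those of WT and IL34KO macrophages, the 2 with the most F3. Without the clusters led by genes of other lineages, F3 was 8.51 CPM in WT and 11.96 CPM in the library labelled IL34KO, down from the 13.7 and 18.5 CPM given above. Both values were above BM (4.67 CPM) and GVHD (7.16 CPM) counted in that way.

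F13a1 ran the other way. It was at 267 CPM in BM and at 29.4 CPM in GVHD, 9.08-fold lower (8.60 to 9.59), and at 47.9 to 52.5 CPM in the other 4 libraries, where the intervals of neighbours in the order overlapped, except those of WT and IL34KO macrophages. At equal depth 20.1% of BM and 3.39% of GVHD cells had a UMI of it, against 0% to 0.935% of T-gated cells. Platelets and megakaryocytes also carry factor XIII, and their 8 markers summed to 11.9 CPM in BM and 5.35 to 7.11 CPM in the others, with Gp1ba at 0 in BM, WT and IL34KO macrophages. Their part in the level of F13a1 was not tested. Fibroblast markers summed to 26.3 CPM in BM and 3.32 to 8.71 CPM elsewhere, and stromal-gated BM cells had 2.29 CPM of F13a1.

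Thbs1 and Plaur differed between libraries in another order. BM had 468 CPM of Thbs1, GVHD 885 CPM, WT 346 CPM and the library labelled IL34KO 244 CPM, beside 359 and 412 CPM in the myeloid cells of the T-cell libraries. GVHD exceeded BM by 1.89-fold (1.86 to 1.93). Plaur was at 545 and 563 CPM in BM and GVHD, 300.1 and 305 CPM in WT and IL34KO macrophages, and 258 and 430.0 CPM in the T-cell libraries. BM and GVHD were thus high for the urokinase receptor, WT and IL34KO macrophages overlapped, and the myeloid cells of the T-cell library labelled IL34KO stood between. A list of 16 immediate-early and heat-shock genes, chosen after the data were seen and known to move with tissue handling, summed to 14347 CPM in BM, 8556 in GVHD and 6865 to 7849 in the other 4. Not all of its genes went that way: Ier3 and Nfkbia were lowest in BM, at 423 and 983 CPM. The part of the list in the levels of Plaur and Thbs1 was not tested. Neutrophil-gated cells had 932 and 1108 CPM of Plaur.

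At 2000 UMIs a cell, Thbs1 was seen in 30.5% of BM cells (28.5% to 32.6%), 59.9% of GVHD cells (57.9% to 61.9%), 34.0% of WT and 27.8% of IL34KO macrophages, and 35.3% and 38.6% of the myeloid cells of the T-cell libraries. BM was thus above all libraries but GVHD by summed level and below all but IL34KO macrophages by share of cells. In the BM library, the 66 cells of cluster 14 had the highest Thbs1 of the 63 pairs of cluster and library with at least 50 cells. Plaur was seen in 57.6% of BM, 65.2% of GVHD, 42.8% of WT and 42.9% of IL34KO macrophages, and in 38.9% and 54.1% of the myeloid cells of the T-cell libraries. T-gated cells had Thbs1 in 0% to 1.87% and Plaur in 0% to 4.67%. F3 and Thbd were seen in at most 3.29% and 1.70% of the cells of any library at this depth.

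The other 6 genes lie apart from F7 and F10 and, Thbs1, Procr and Thbd excepted, from each other. By the GENCODE annotation of GRCm38, F3 (ENSMUSG00000028128) is on chromosome 3 from 121723537 to 121735048 (+) and Plaur (ENSMUSG00000046223) on chromosome 7 from 24462484 to 24475968 (+). F13a1 (ENSMUSG00000039109) spans 36867178 to 37050244 of chromosome 13 (-). Chromosome 2 holds Thbs1 (ENSMUSG00000040152, 118111876 to 118127133, +), Thbd (ENSMUSG00000074743, 148404466 to 148408188, -) and Procr (ENSMUSG00000027611, 155751117 to 155755471, +), which are megabases apart.

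Read over the 8 genes, GVHD against BM gave 5 genes at least 1.5-fold higher (F7, F10, Procr, Thbs1, F3) and 1 at least 1.5-fold lower (F13a1), with Plaur (1.03-fold) and Thbd within. All 8 reached 5 CPM in 1 of the libraries. Among the 9861 genes at that level, 15% were at least 1.5-fold higher and 18.3% lower; since the members were chosen with these libraries known, nothing is read from their excess. Their median log2 ratio was 0.75, beside -0.01 over all 9861. F3 sat on the border (1.501, interval 1.24 to 1.83) and was under it in 5 of 15 other settings, from 1.24 to 1.49. Kept BM barcodes that GVHD shares lowered F7 to 6.55-fold, F10 to 5.02-fold and Procr to 3.95-fold, and thinning raised F7 to 41.4-fold.

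**Figure D3:**
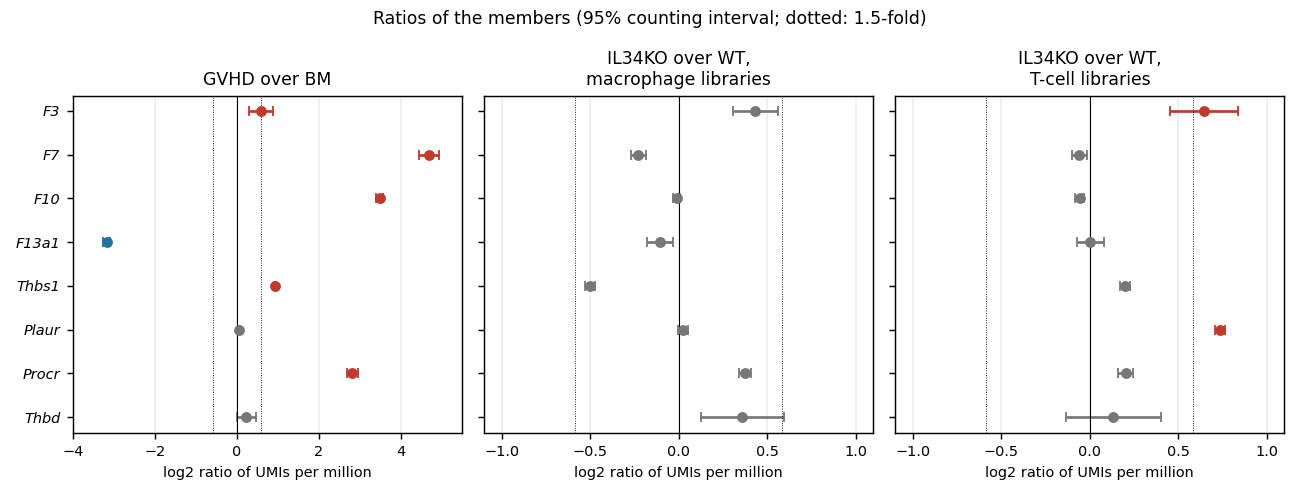
Log2 ratios of the 8 genes in the 3 comparisons, with 95% counting intervals; red points are at least 1.5-fold higher, blue at least 1.5-fold lower, grey neither (Thbd is under 5 CPM in both T-cell libraries), and the dotted lines mark 1.5-fold. The first panel has a wider axis: F7, F10 and Procr are far to the right and F13a1 far to the left, while most points of the other 2 panels lie between the dotted lines.

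In both comparisons of IL34KO with WT recipients the ratios lay closer to 1. In the macrophage libraries none of the 8 passed 1.5-fold in either direction, where 2.64% of 9311 genes did so, 1.12% higher and 1.53% lower. F10 (0.992), Plaur (1.02), F13a1 (0.929) and F7 (0.853) were near 1. F3 (1.35, or 1.79 with cells weighted equally), Procr (1.30) and Thbd (1.28) were above 1 and Thbs1 was below it (0.706, 0.691 to 0.720). The Thbs1 ratio was below 1 in all 10 clusters with at least 50 cells in both libraries, from 0.529 to 0.902. That of Thbd was above 1 in 9 of the 10, from 0.928 in cluster 10, led by neutrophil genes, to 1.96, on 324 and 279 UMIs in all. The F3 ratio was above 1 in 5 and below it in 5 of the 10, from 0.382 to 1.51 with a median of 0.962. Its value over all gated cells was thus not seen in most clusters.

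In the myeloid cells of the T-cell libraries 7 of the members reached 5 CPM, and 2 of these passed 1.5-fold, both higher in the library labelled IL34KO, where 0.859% of 9427 genes were higher and 0.668% lower. Plaur was 1.67-fold higher (1.63 to 1.70) and above 1 in all 12 clusters with at least 50 cells in both libraries (1.22 to 2.15). F3 was 1.56-fold higher (1.37 to 1.79) on 441 and 448 UMIs, and 1.87-fold higher without the clusters of other lineages. F7 (0.960), F10 (0.961) and F13a1 (1.002) were near 1, and Procr and Thbs1 were both at 1.15, Thbs1 being above 1 in 8 and below it in 4 of the 12 clusters. Plaur was 1.02 and Thbs1 0.706 in the macrophage libraries of the same recipient types, so neither gene gave the same ratio in the 2 pairs. Summed immediate-early and heat-shock genes were 6886 CPM in WT and 7849 CPM in IL34KO T-cell libraries, with 13 of the 16 higher and 3 lower in the second, and their part in these ratios was not tested.

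The gated cells fell into 18 clusters, made without the 8 genes among the variable genes. Cluster levels are descriptions, since other genes of the same cells made the clusters. Cluster 3 had 3043 cells, with Clmp, Svs5, Cav1, Cxcl3, Inhba, Nos2, Spp1 and Svs4 among its leading genes. It had the most F7, 277 CPM, and the most Procr, 490.4 CPM. Over all gated cells Svs5 was at 72.9 CPM in the WT and 7.52 CPM in the IL34KO T-cell library. In the macrophage libraries Svs5 was at 0 to 0.0651 CPM, and where this RNA came from was not tested. Cluster 13 (662 cells, with Fap, Tnfsf15 and Il12b) had the most F10, 815 CPM, with 429 CPM of Procr and 26.8 CPM of F3. The monocyte-like clusters 2 (Plac8, Ly6c2) and 14 (Vcan, Ly6c2) had F10 at 637 and 543 CPM but F7 at only 69.5 and 22.3 CPM. F10 was thus high in clusters 2 and 14, where F7 was low, and both were high in cluster 3. Low F7 did not follow the monocyte markers as a list. Of 6 such markers, 4 were detected in at least 25% of the cells in clusters 2 and 3 alike. Cluster 8 had 5 of them with F7 at 122 CPM. Clusters 10 and 14 had all 6, with F7 at 120 and 22.3 CPM.

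F13a1 peaked at 1344 CPM in cluster 15 (345 cells, with Retnla, Lyve1, Cd163 and Folr2), of which it is itself a leading gene, and was 308 CPM in monocyte-like cluster 14. In cluster 15 it stood at 1465 CPM in the 92 BM cells and at 1901 and 1316 CPM in the 125 and 73 cells of the WT and IL34KO T-cell libraries. The level in BM cells of this kind thus lay between those of the T-cell libraries. Cluster 7 held 1719 of the 2082 BM cells, with F13a1 at 215 CPM, F10 at 17.4 CPM and F7 at 3.08 CPM in them. The 96 and 55 cells of cluster 7 in the WT and IL34KO T-cell libraries had more F13a1 than those of BM, 651 and 868 CPM. They also had more F10, 123 and 84.4 CPM, and more F7, 46.6 and 38.6 CPM. Cluster 8 held 1378 of the 2381 GVHD cells, with F10 at 407 CPM, F7 at 121 CPM and F13a1 at 30.2 CPM. No cluster had 50 cells in both BM and GVHD, so library and cluster cannot be told apart in that comparison.

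Among the clusters with at least 50 BM cells, factor X in BM was highest in the 66 cells of monocyte-like cluster 14. F10 was 300.5 CPM in them, against 17.4 CPM in cluster 7, and Thbs1 was 2326 CPM. F7 was 3.61 CPM there. In cluster 14 of WT and IL34KO macrophages F10 was 592 and 606 CPM, F7 29.1 and 20.4 CPM and Thbs1 954 and 860.4 CPM. F13a1, highest in BM by library, was 180 CPM in the BM cells of cluster 14 and 354 and 368 CPM in those of WT and IL34KO macrophages. BM cells of cluster 14 thus had less F10, less F13a1 and more Thbs1 than those of these 2 libraries. The other 3 libraries held under 50 cells of it.

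**Figure D4:**
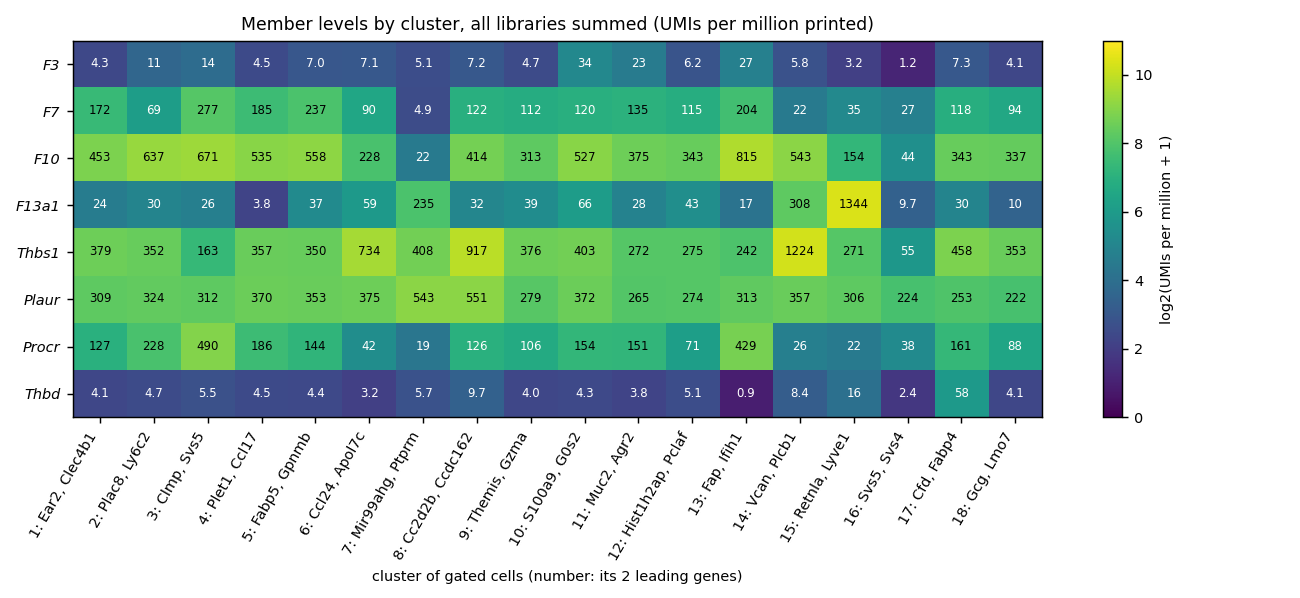
Levels of the 8 genes (rows) in the 18 clusters of gated cells (columns, named by number and 2 leading genes), all libraries summed; colour is log2(CPM + 1) and the printed values are CPM. F7 and Procr peak in cluster 3, F10 in cluster 13, F13a1 in cluster 15 and Thbs1 in cluster 14, while Plaur is at 222 to 375 outside clusters 7 and 8.

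In 7 clusters (1 to 6 and 12) there were at least 50 cells in each library other than BM, which allowed clusters and libraries to be set side by side; this was chosen after the data were seen. Of the spread of log2 levels over these clusters and libraries, differences between clusters made up 94.8% for Procr, 84.2% for F7, 80.4% for F10 and 72.0% for F13a1. For Plaur they made up 11.9%, and differences between libraries 86.0%; for Thbs1 the libraries made up 59.8%. In GVHD all 7 clusters had 458 to 600.5 CPM of Plaur, in the WT macrophage library 213 to 310.1 CPM. Over these 7 clusters those 2 ranges did not overlap. The same held for the T-cell libraries, with 215 to 309 CPM in WT and 330.1 to 499 CPM in the library labelled IL34KO. It did not hold beyond the 7 clusters: in cluster 15 Plaur was 190 CPM in WT and 232 CPM in the T-cell library labelled IL34KO. Procr ran from 41.0 CPM in cluster 6 to 406 CPM in cluster 3 within GVHD, and from 60.6 to 523 CPM between the same clusters within WT.

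**Figure D5:**
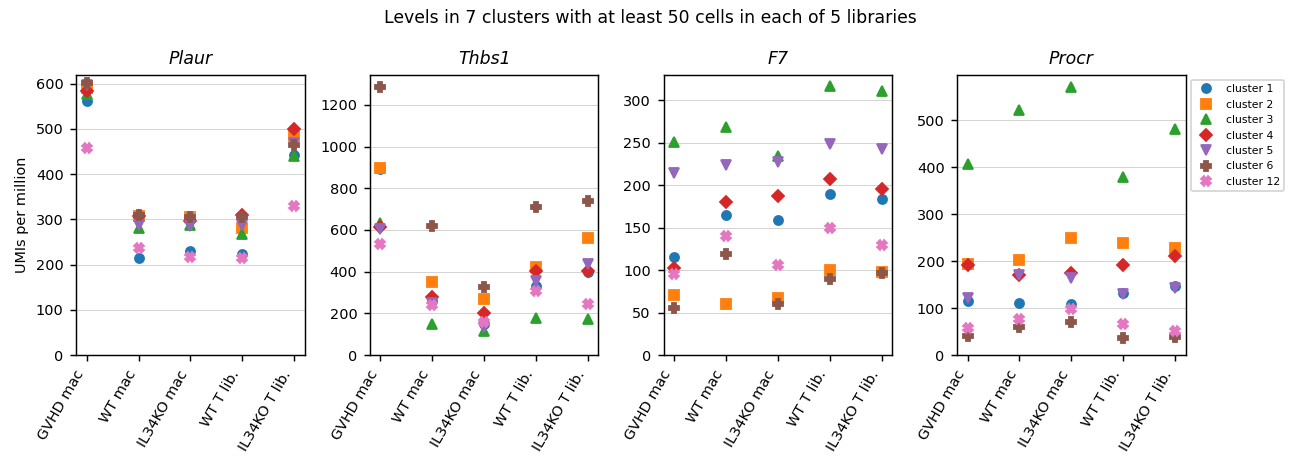
Levels in CPM of Plaur, Thbs1, F7 and Procr in 7 clusters (symbols) of 5 libraries (columns), axes from 0. Plaur points of a library lie close together and shift between libraries, whereas F7 and Procr points spread within each library with cluster 3 on top.

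Cell by cell, at 2000 UMIs each, the members went with different genes. Procr went with Nos2, the inducible nitric oxide synthase: in GVHD 35.0% of cells with a Nos2 UMI had one of Procr (28.4% to 42.1%), against 15.01% of cells without, and in WT 42.6% against 17.5%. F7 did so less steeply, at 26.0% against 18.1% in GVHD and 24.6% against 20.7% in WT. F10 in BM went with Ly6c2, a gene of inflammatory monocytes: 33.3% of Ly6c2-positive BM cells had F10 (23.2% to 44.7%), against 3.06% of the rest. F13a1 in BM went with Cd163, a gene of resident macrophages, at 64.1% against 16.4%, and so it did in the WT T-cell library, at 77.5% against 4.55%. The neighbours F7 and F10 overlapped little beyond their separate rates: F10 was seen in 53.5% of GVHD cells with F7 and 46.7% of those without, and in 61.1% and 60.01% in WT. A UMI missing at this depth does not show that a cell lacks the RNA. At least 3 of the 8 genes had a UMI in 6.58% of BM cells, 37.1% of GVHD cells and 25.1% to 31.1% of the other libraries' cells.

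The 3 genes most like each member, by Pearson's r of log2(CPM + 5) over 63 cluster-by-library units of at least 50 cells, are named as a description; the units share libraries and depth. F7 was most like Socs2 (r = 0.87), Pdcd1lg2 (0.85) and Sdc1 (0.85), F10 like Tarm1 (0.92), Mcemp1 (0.91) and Nfil3 (0.90), and Procr like Asb11 (0.89), AA467197 (0.87) and Alas1 (0.86). F13a1 was most like Gas7 (0.84), Oas2 (0.84) and Folr2 (0.81), and Plaur like Atxn2l (0.82), Crtc2 (0.79) and Ensa (0.78). F3 was most like Il23a (0.74), Fpr3 (0.70) and Egln3 (0.69), Thbs1 like Serp1 (0.71), Rara (0.70) and Prtn3 (0.69), and Thbd like Mindy1 (0.66), Cd53 (0.65) and Tollip (0.63). Among the members themselves the highest values were 0.77 for F7 with Procr, 0.75 for F10 with Procr and 0.70 for F7 with F10, and the lowest -0.69 for F13a1 with Procr.

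Of 67 other genes of the pathway, 31 reached 5 CPM in BM or GVHD; 7 were at least 1.5-fold higher in GVHD and 12 lower, beside 15% and 18.3% of all 9861 genes, with a median log2 ratio of -0.22. On the list of plasminogen activation 4 of 6 were higher: Plat, the tissue plasminogen activator, 5.77-fold (1.48 to 8.55 CPM), Eno1 2.24-fold, Plgrkt, a plasminogen receptor, 1.69-fold and Anxa2, a plasminogen-binding annexin, 1.56-fold. Plau, the urokinase that Plaur binds, was lower, at 194 CPM in BM and 65.7 CPM in GVHD, while Plaur itself was at 1.03-fold. Serpinb2, which inhibits urokinase, was 3.85-fold higher from a low level (2.09 to 8.05 CPM). The protease inhibitor gene Serpinb6a was 8.49-fold lower.

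Of 9 other genes on the list of the protein C pathway and other anticoagulants, 3 reached 5 CPM and 2 of these were at least 1.5-fold lower in GVHD, Pros1 and Gas6; Proz, at 8.58-fold, missed that level. Tfpi, the inhibitor of the tissue factor and factor VIIa complex, was 11.9 CPM in BM and 3.31 CPM in GVHD, 3.58-fold lower (2.98 to 4.32). Pros1, which encodes protein S, the cofactor of activated protein C, was 3.14-fold lower and Gas6, its relative, 31.5-fold lower (123 to 3.90 CPM). Anxa5 was at 562 and 399 CPM, within 1.5-fold. Tgm2, a transglutaminase related to F13a1, was 2.69-fold higher, at 161 CPM in BM and 433 CPM in GVHD, and so went against F13a1. Of the receptors, Cd36 and Itgav were 1.98- and 2.51-fold lower, Cd47 was at 1.29-fold, Itgb2 was 2.01-fold higher, and Stab1 and Mrc1 8.60- and 2.21-fold lower. Mcfd2, needed for the export of clotting factors from the cell, was 1.67-fold lower, Vkorc1 of the vitamin K cycle 1.63-fold lower and Ptgs1, a cyclooxygenase, 2.01-fold lower. Fga, Fgb and Fgg, the fibrinogen genes, had 0 UMIs in both libraries, and no protease-activated receptor reached 5 CPM. In the IL34KO comparisons 0 of 31 and 0 of 30 such genes were higher, beside 1.12% of 9311 and 0.859% of 9427 genes in all. Mrc1 (2.03-fold) and Ptgs1 (1.55-fold) were lower in the macrophage library labelled IL34KO, beside 1.53% of all measured genes. None was lower in the T-cell library labelled IL34KO, beside 0.668%.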

How the data were processed

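Live cells sorted from mouse colon were run on 10x Genomics kits, 5′ and 3′, per the labels' protocols, with no word on which library had which. The authors deposited counts of UMIs per gene and barcode, 1 matrix per library, made with Cell Ranger 7.0.1 and mm10 per the submitters' processing notes. Each library is its own group, so no test, p-value or standard error was computed.

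Barcodes with at least 500 genes and at most 10% mitochondrial counts were kept. A cell was gated as myeloid when at least 3 of 16 panel genes held at least 0.5% of its UMIs and none of the 6 other panels was positive. No doublet caller was run; cells positive for more than 1 panel were left out, which does not remove doublets of myeloid cells. Of the gated cells 1787 (6.50%) lay within a factor of 2 above the threshold. UMIs were summed per library and given as counts per 1000000 of the gated total. Levels carry exact Poisson, ratios exact conditional binomial and shares exact Clopper-Pearson 95% intervals, computed with scipy 1.17.1, for counting error only. Levels were compared between libraries, not between genes, whose RNA ends are captured unequally. Where 2 compared libraries differed in kit, unequal capture also falls on their ratios, and this was not tested. A fold counts from 1.5, in genes that reach 5 CPM in either library. The ratio step was tested on simulated counts.

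Clusters came from 2000 variable genes without the members, 30 principal components, 15 neighbours and Leiden at resolution 1 (leidenalg 0.10.2), with no batch integration. The clusters left out as other lineages (9, 10, 11, 17 and 18) were chosen after the data were seen.

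The members and lists were chosen with earlier results of these data known. All members were named, with up to 3 genes per pathway group furthest from 1 in GVHD against BM, the 3 most alike genes and the neighbours of F7 and F10; other pathway genes named were chosen after their values were seen. Alternatives numbered 15 for GVHD against BM and 12 for each IL34KO comparison, with scaling factors from edgeR 4.0.16 (TMM) and DESeq2 1.42.0 (median of ratios). Coordinates are from GENCODE M21 on the same build, promoters from RefSeq.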

Additional observations from a re-analysis of the deposited data

Results flagged for a closer look

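Thbs1 went in opposite directions in the 2 pairs of libraries from WT and IL34KO recipients. Its ratio of IL34KO over WT was 0.706 in the macrophage libraries and 1.15 in the myeloid cells of the T-cell libraries, and it was looked at because the directions differ. Within clusters the ratio was below 1 in 10 of 10 in the first pair, and above 1 in 8 and below it in 4 of 12 in the second. With 1 library of each kind the difference was not tested.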

How the results depend on the processing

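The ratios of the 8 genes were recomputed under each alternative, 312 values in all: none past 1.5-fold changed direction, 256 moved by less than the counting interval and 56 by more, 4 of them by over 1.5 times. These 4 were GVHD over BM with cells thinned to 2000 UMIs (F7 41.4) and with the shared barcodes kept in BM (F7 6.55, F10 5.02, Procr 3.95). The number of members at least 1.5-fold higher in the macrophage library labelled IL34KO was 1 in place of 0 with cells weighted equally (F3, 1.79), and in the T-cell library labelled IL34KO it was 1 in place of 2 with a level of 20 CPM required, which leaves F3 untested. In GVHD against BM it was 4 or 5, F3 being the gene that changed sides. Other scalings shifted all GVHD over BM log2 ratios by 0.14 (TMM) and 0.15 (median of ratios), with which Plaur was 1.14-fold in both and no GVHD over BM ratio crossed 1. Ratios near 1 that crossed it were those of IL34KO over WT for F13a1 (1.03 in the macrophage libraries without clusters of other lineages, 0.840 to 0.998 in the T-cell libraries under 8 alternatives), F10 (1.001 in the macrophage libraries with gate thresholds halved) and Thbd (0.956 and 0.963 in the T-cell libraries, thinned and with cells weighted equally). No paired analysis was possible because each group is 1 library. Depth limits Thbd and F3 most, at 146 to 1137 UMIs per library, and the BM level of F7.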
